A study of Mus musculus with 2 samples.

Results

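The Magi genes, Magi1, Magi2 and Magi3, are 3 of the 21774 protein-coding genes placed on chromosomes 1 to 19, X and Y, and were chosen by name, with the knowledge that Magi2 is among the genes with most H3K9me2 peaks. H3K9me2, dimethylation of lysine 9 of histone H3, had been profiled in activated B cells of C57BL/6 mice with CUT&Tag, an assay that uses antibody-tethered transposase to cut and tag DNA at the mark. The group WT was 1 library from wild-type cells and the group KO was 1 library from cells with a B cell knockout of Jmjd1c, which the labels write as jmjd1c B KO. The deleted allele, what drives its deletion, the stimulus and the number and age of mice are not given in the sources used here. With 1 library for each genotype, differences could not be checked against replicates, and p-values are not given. All intervals are 95% intervals for counting error only.

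MAGI proteins are membrane scaffolds of the MAGUK family (membrane-associated guanylate kinases), with the usual domain order inverted. Their PDZ domains bind the tails of membrane proteins and their WW domains bind proline-rich motifs. MAGI1 and MAGI3 are known from junctions of epithelial and endothelial cells, and MAGI2, also named S-SCAM, from synapses and from the slit diaphragm of the kidney. H3K9me2 is laid down by enzymes such as G9a and is found in repressed chromatin, and JMJD1C belongs to the KDM3 family of jumonji proteins, which holds H3K9 demethylases.

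The lists rested on 33474010 tags in WT and 34502392 in KO, with 31623 and 32149 peaks on the chromosomes analysed. The caller used a modelled fragment length, d, of 292 bp in WT and 189 bp in KO, which is the smallest width it can report and which also acts on pileup and q. Median widths over the whole lists were 486 bp (WT) and 376 bp (KO). Jmjd1c itself held 0 peaks in both lists, which therefore do not check the deletion. The B cell genes Cd79a, Cd79b, Ms4a1, Pax5 and Ebf1 had 0 peaks in both lists, and since a peak list does not measure expression, it does not check the cell type.

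The 3 Magi genes spanned the range from peak-rich to peak-free. Within the gene body and 2 kb on both sides, Magi2 (chromosome 5 from 19219387 to 20704792, plus strand) had 65 peaks in WT and 66 in KO. Magi1 (chromosome 6 from 93675453 to 94283929, minus strand) had 22 and 18. Magi3 (chromosome 3 from 104013259 to 104220406, minus strand) had 0 and 0. So 2 of the 3 genes held a peak, both of them in both lists, against 11.8% of all protein-coding genes with a peak in either list and 7.78% with one in both. Peak number was known when the genes were chosen, so nothing is read from that. The genes also differ in length, at 1485 kb for Magi2, 608 kb for Magi1 and 207 kb for Magi3.

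Per length, Magi2 had 43.6 peaks per Mb in WT (exact Poisson interval 33.7 to 55.6) and 44.3 in KO (34.3 to 56.4). Magi1 had 35.9 per Mb in WT (22.5 to 54.4) and 29.4 in KO (17.4 to 46.4). The intervals of the 2 genes overlapped in both libraries. All protein-coding windows together held 8.71 per Mb in WT and 8.87 in KO, given as a description, since Magi2 was chosen for its peak number. For Magi3, with 0 peaks in a window of 211 kb, the exact Poisson upper bound is 17.5 per Mb, so this count does not set the gene below the average coding window.

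**Figure D1:**
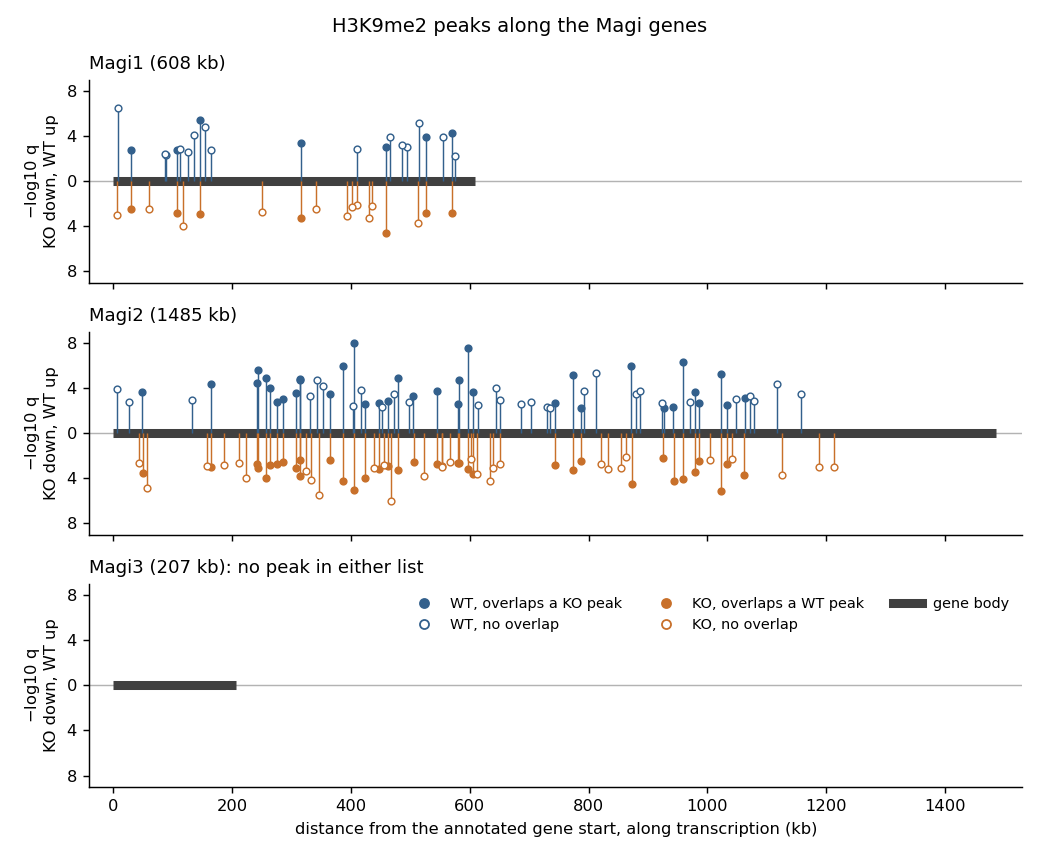
Each stem is a peak, placed by the distance of its midpoint from the annotated gene start (kb, along transcription), with its height the caller's −log10 q; WT stems point up and KO stems down, filled circles overlap a peak of the other list by at least 1 bp, and the dark bar is the gene body. Magi2 carries 65 WT and 66 KO peaks that stop before its last part, Magi1 carries 22 and 18, and Magi3 carries 0.

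By the number of peaks of both lists together, Magi2 ranked 4 among the 21774 protein-coding genes, as a description of the value it was chosen for, and it ranked 16 in window length. Directly above it stood Csmd3, a giant gene with complement-type domains (75 WT and 68 KO peaks), Cntnap2, a neurexin relative (90 and 69), and Dlg2, a MAGUK of the postsynaptic density (98 and 95). Among those below it were Grm8, a metabotropic glutamate receptor gene (56 and 51), and Dgkb, a diacylglycerol kinase gene (44 and 60). In summed difference of WT and KO peak numbers from Magi2, Csmd3 was nearest at 12 peaks and Dlg2, at 62, was the farthest of these 5 genes. With peaks at a q of 1e-05 or lower, Magi2 ranked 8.

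The peak numbers of the 3 genes followed the order of their lengths, so each was set beside genes of like length. All 34 protein-coding genes with windows within 25% of that of Magi2, itself included, held at least 5 peaks over both lists, with a median of 33. Magi2 ranked 3 among them in peaks per Mb, as a description of the value it was chosen for. Among the 227 genes with windows of at least 500 kb, Magi2 ranked 24 and Magi1 43 in peaks per Mb. Of the 167 genes of a length like that of Magi1, 81.4% held a peak, and Magi1 ranked 39 in peaks per Mb with 32.7 as its mean of both libraries, against a median of 16.8. Of the 712 genes of a length like that of Magi3, 39.2% held a peak, so Magi3 was with the larger group of 433 genes that held none.

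**Figure D2:**
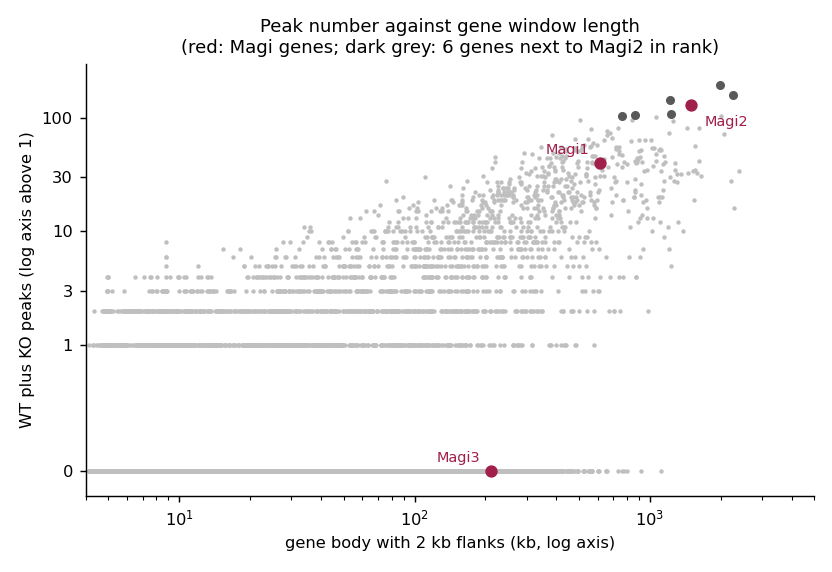
Each point is a protein-coding gene, with the length of its body and 2 kb flanks on the x axis (kb, log axis) and its WT plus KO peaks on the y axis (log axis above 1). Magi2 lies near the top with 131 peaks, Magi1 among the genes of its length that have peaks with 40, and Magi3 on the line of genes at 0.

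The peaks of Magi2 ran from near its start into its last part and then stopped. The first WT peak had its midpoint 6.70 kb from the annotated start and the last at 1158 kb, which left the final 327 kb (22.0% of the gene) without a peak. In KO the first was at 43.4 kb and the last at 1213 kb, and the final 272 kb (18.3%) had none. The start side of the gene, up to its midpoint, held 42 of 65 WT peaks (64.6%, exact binomial interval 51.8 to 76.1%) and 45 of 66 KO peaks (68.2%, 55.6 to 79.1%). Among the 9 WT peaks at a q of 1e-05 or lower, 44.4% lay on the start side, and among the 4 such KO peaks 75% did, counts too small to place the share on either side of the midpoint.

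In steps of 100 kb, peaks were spread over Magi2 from 200 to 1100 kb from its start. From 200 to 600 kb the counts were 6, 8, 10 and 5 in WT and 8, 8, 8 and 9 in KO. From 600 to 1100 kb there were 5, 7, 4, 7 and 6 in WT and 6, 3, 5, 5 and 5 in KO. The libraries differed most from 500 to 600 kb, with 4 more peaks in KO, and from 700 to 800 kb, with 4 fewer. From 1100 to 1200 kb each library had 2 peaks, from 1200 to 1300 kb there was 1 KO peak and no WT peak, and beyond that there was none.

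Magi1 had peaks on both sides of its midpoint, with a sparse stretch between them. Its WT peaks ran from 7.83 to 575 kb from the start, and its KO peaks from 5.95 to 570 kb. The start side held 11 of 22 WT peaks (50%, 28.2 to 71.8%) and 7 of 18 KO peaks (38.9%, 17.3 to 64.3%). The longest distance between neighbouring midpoints was 151 kb in WT, from 164 to 316 kb, and 104 kb in KO, from 146 to 250 kb. In steps of 100 kb from the start, WT had 4, 7, 0, 1, 5 and 5 peaks and KO had 3, 3, 1, 3, 5 and 3. The largest difference was 4 fewer KO peaks from 100 to 200 kb.

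**Figure D3:**
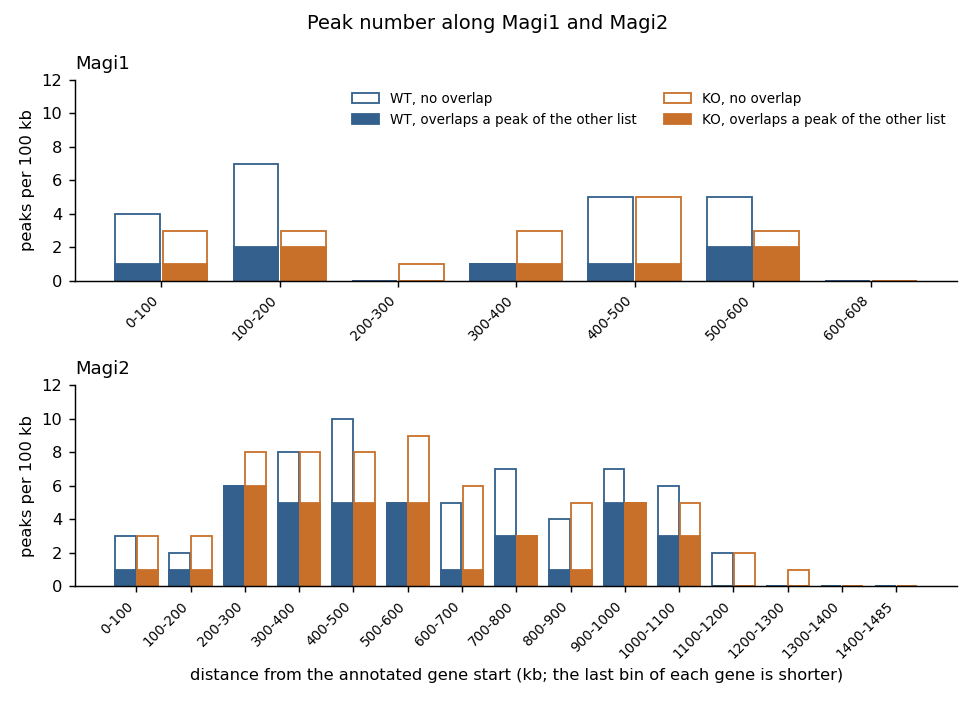
Bars give the number of peaks per 100 kb from the annotated start of Magi1 and Magi2 in WT and KO, by peak midpoint, and the filled part of a bar counts peaks that overlap a peak of the other list. In Magi2 all 6 WT peaks from 200 to 300 kb are overlapped, and the 2 WT and 2 KO peaks from 1100 to 1200 kb are not. Over the whole lists 46.4% of WT and 45.9% of KO peaks are overlapped.

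A position along the gene could also be given for 206 of the 278 protein-coding genes with 20 or more peaks, those with a promoter entry that gives strand. Over these, the median share of peaks on the start side was 53.5%, with quartiles of 41.2 and 64.8%. Magi2, with 66.4% over both libraries, had 43 genes above it, and Magi1, with 45%, had 140. The peak-free end had a median of 5.14% of the gene, against 18.3% in Magi2, with 30 genes above it, and 5.55% in Magi1.

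Magi2 has 2 promoters in the RefSeq promoter table, and both had a WT peak nearby that the KO list did not share. Over the whole WT list only 46.4% of peaks were overlapped by a KO peak, so nothing is read from that. The first start lies 7.66 kb into the annotated gene, next to a WT peak from 19225601 to 19226578, 978 bp wide with a pileup of 36.5 and a −log10 q of 3.91. This peak ended 468 bp before the start, and the nearest KO peak was 17.3 kb away, upstream from 19208957 to 19209740. Both of these peaks overlapped the noncoding RNA gene 4921504A21Rik, which runs across the annotated start of Magi2. The second start lies 688 kb into the gene, with a WT peak 1.52 kb before it (292 bp wide, −log10 q of 2.57) and the nearest KO peak 36.8 kb away. Neither list had a peak inside the 250 bases before any of the 5 Magi starts in the table.

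The 250 bases before these 2 starts, and those before the start of Magi3, are shown because they set a promoter beside a peak against one in a peak-free region. They are RefSeq sequence of GRCm38.p6, the assembly behind mm10, on the gene's own strand, and capitals mark the dinucleotide CG, which reads the same on both strands.
Magi2 first promoter (chr5:19226796-19227045, plus strand): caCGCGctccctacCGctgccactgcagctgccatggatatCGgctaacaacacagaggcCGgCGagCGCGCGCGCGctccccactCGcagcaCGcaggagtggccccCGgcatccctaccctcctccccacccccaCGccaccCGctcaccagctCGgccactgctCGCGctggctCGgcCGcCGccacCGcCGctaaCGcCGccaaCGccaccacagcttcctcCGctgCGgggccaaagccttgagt
Magi2 second promoter (chr5:19907268-19907517, plus strand): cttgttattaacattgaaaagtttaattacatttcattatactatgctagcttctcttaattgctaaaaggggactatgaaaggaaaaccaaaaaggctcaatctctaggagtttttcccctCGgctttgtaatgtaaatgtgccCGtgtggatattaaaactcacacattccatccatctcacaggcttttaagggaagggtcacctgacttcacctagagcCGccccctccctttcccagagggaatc
Magi3 promoter (chr3:104220407-104220656, minus strand): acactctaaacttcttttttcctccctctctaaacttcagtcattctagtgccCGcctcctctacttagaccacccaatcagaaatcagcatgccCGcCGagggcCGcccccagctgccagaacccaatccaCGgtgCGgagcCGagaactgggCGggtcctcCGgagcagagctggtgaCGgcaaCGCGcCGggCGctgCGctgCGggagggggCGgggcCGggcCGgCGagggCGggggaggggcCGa
The first Magi2 promoter held 29 CG and had a GC content of 72.0%, the second 3 CG and 41.2%, and that of Magi3 22 CG and 66.4%. At least 1 CG was in 93.4% of the 21263 promoters of coding genes at this length, with a median of 10, and 8.77% had as many as the first Magi2 promoter. The WT peaks near the Magi2 starts thus stood beside 1 promoter rich in CG and 1 poor in it.

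Around the other starts with a promoter entry peaks were farther off. The annotated start of Magi1 has no such entry and is not counted here. Its nearest peak midpoints were at 7.83 kb in WT and 5.95 kb in KO. The annotated start of Magi2 is not counted either. It had a WT peak midpoint 6.70 kb inside the gene and a KO peak that ended 9.65 kb upstream. The annotated starts of both genes thus had a peak within 10 kb in both lists. Magi1 has 2 entries, 370 and 371 kb into the gene, from 93913691 to 93913940 and from 93912964 to 93913213, with 5 CG each. The nearest WT peaks were 39.8 and 39.1 kb and the nearest KO peaks 22.6 and 21.9 kb away, all farther inside the gene. At Magi3 the nearest WT peak was 1015 kb and the nearest KO peak 910 kb from the start. A peak within 10 kb was thus present at 2 of the 5 Magi starts with a promoter entry in WT and at 0 in KO. Over all promoters of coding genes the share was 7.69% in WT and 7.82% in KO. The 2 starts with a WT peak are in the same gene, and each rests on 1 peak; the part of the longer d of WT was not tested.

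The bodies of Magi1 and Magi2 were denser in peaks than the 500 kb on either side. For Magi2 the upstream 500 kb, which hold no coding gene, had 2 WT and 6 KO peaks, and the downstream 500 kb, with 6 coding genes, had 0 and 0. The gene body had 21.9 times the density of its flanks in WT (5.82 to 184) and 7.41 times in KO (3.23 to 20.9). With 1 Mb on each side these ratios were 6.25 and 4.23. All of them use the peak number that Magi2 was chosen for and are a description. The body of Magi1 had 4.52 times the density of its flanks in WT (1.94 to 11.7) and 3.29 times in KO (1.40 to 8.31), from 8 and 9 flank peaks. For Magi3 the gene and both flanks of 500 kb were at 0 in both libraries.

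**Figure D4:**
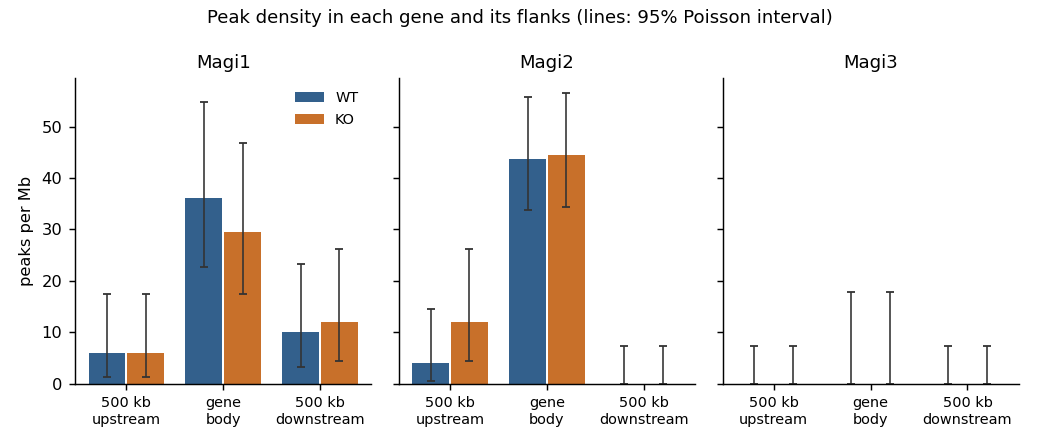
Bars give peaks per Mb in the gene body and in 500 kb upstream and downstream of each Magi gene in WT and KO, and lines are 95% Poisson intervals. The bodies of Magi1 and Magi2 stand at 29.6 to 44.4 peaks per Mb, their flanks at 0 to 12, and all bars of Magi3 are at 0.

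The nearest coding neighbours differed between the genes. Upstream of Magi2 the nearest was Gnai1, a G protein subunit gene 859 kb away, with 3 WT and 5 KO peaks. Downstream was Phtf2, 53.9 kb away, with 0 and 0. Downstream of Magi1 was the matrix protease gene Adamts9, 731 kb away, with 7 and 6, and upstream the mitochondrial carrier gene Slc25a26, 216 kb away, with 0 and 0. Magi3 lay between Phtf1, 5.77 kb downstream, and the membrane protein gene Lrig2, 234 kb upstream, both with 0 peaks. No other coding gene overlapped a Magi gene.

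Noncoding genes inside the Magi genes held part of the peaks. In Magi2, Gm52766, a long noncoding RNA gene of 112 kb between 415 and 526 kb from the start, held 9 WT and 9 KO peaks. The shorter Gm52765, between 548 and 572 kb, held 0 in WT and 3 in KO. These 3 are among the KO peaks already counted from 500 to 600 kb. Over the whole KO list only 45.9% of peaks were overlapped, and 2.11% of coding genes had peaks in KO only. Nothing is read from this count. In Magi1, 4930511A08Rik, of 105 kb between 46.5 and 151 kb from the start, held 7 and 4. Such peaks cannot be assigned to the coding or the noncoding gene.

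Peak number hardly differed between the genotypes at Magi2, and its difference at Magi1 was within counting error. The KO to WT ratio was 1.02 at Magi2 (0.710 to 1.45) and 0.818 at Magi1 (0.414 to 1.6). These intervals leave room for a change of up to about 1.5-fold at Magi2 and more at Magi1. Neither gene passed a 1.5-fold difference in peak number (after adding 0.5 to each count), a size that 14.4% of the 905 genes with 5 or more peaks exceeded toward KO and 11.6% toward WT. Among the 278 genes with 20 or more peaks, 8.99% did so in either direction. At a q of 1e-05 or lower the counts were 9 WT and 4 KO peaks at Magi2, a ratio of 0.444, and 3 and 0 at Magi1. Over the whole lists 4110 WT and 2603 KO peaks reached that q, and q depends on d, whose part in these counts was not tested.

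Covered length was lower in KO at both genes. Peaks covered 38.3 kb of the Magi2 window in WT (2.57%) and 31.4 kb in KO (2.11%), a ratio of 0.818. At Magi1 they covered 12.1 kb (1.98%) and 8.98 kb (1.47%), a ratio of 0.741. With KO peaks widened by the 103 bp difference in d, the KO share was 2.56% at Magi2 and 1.77% at Magi1. Widening raises covered length by construction, and the part of d in the difference was not tested.

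Part of the peaks of both genes was shared between the libraries. At Magi2, 36 of 65 WT peaks (55.4%, 42.5 to 67.7%) met a KO peak in 1 bp or more, and 36 of 66 KO peaks (54.5%, 41.8 to 66.9%) met a WT peak. At Magi1 it was 7 of 22 (31.8%, 13.9 to 54.9%) and 7 of 18 (38.9%, 17.3 to 64.3%). The whole lists had 46.4% and 45.9%, which lie inside all 4 intervals, so these counts do not set either gene apart from the genome. With a reciprocal overlap of 50% the shares were 38.5% and 37.9% at Magi2 and 13.6% and 16.7% at Magi1. A whole-list share at this stricter criterion is not given here, so these shares are not set against the genome.

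Shared peaks lay on both sides of the midpoint of Magi2. The start side had 24 of 42 WT peaks shared (57.1%, 41.0 to 72.3%) and the end side 12 of 23 (52.2%, 30.6 to 73.2%). Among KO peaks it was 24 of 45 and 12 of 21. In Magi1 the start side had 3 of 11 WT peaks shared and the end side 4 of 11.

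Shared peaks had larger median widths and −log10 q than the others, as over the whole lists. In Magi2 the median width was 569 bp for overlapped and 431 bp for other WT peaks, and 506.5 and 351.5 bp for KO peaks. The median −log10 q was 3.68 and 3.04 in WT and 3.11 and 2.99 in KO. In Magi1 the widths were 654 and 402 bp in WT and 458 and 369 bp in KO. A wider peak has more bases that can meet another, and over the whole lists the widths were 568 and 427 bp in WT and 474 and 325 bp in KO. The 36 shared Magi2 sites paired one to one, with midpoints a median of 87 bp apart, and the WT peak was the wider in 23 pairs and the KO peak in 13. Above the d of its library, the median width in these pairs was 277 bp for WT peaks and 317.5 bp for KO peaks. The direction of the medians thus turned at Magi2 once d was subtracted. It did not turn in the 7 Magi1 pairs, with a median above d of 362 bp for WT peaks and 269 bp for KO peaks. The WT peak was the wider in 4 of these pairs and the KO peak in 3, so the pairs were split.

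**Figure D5:**
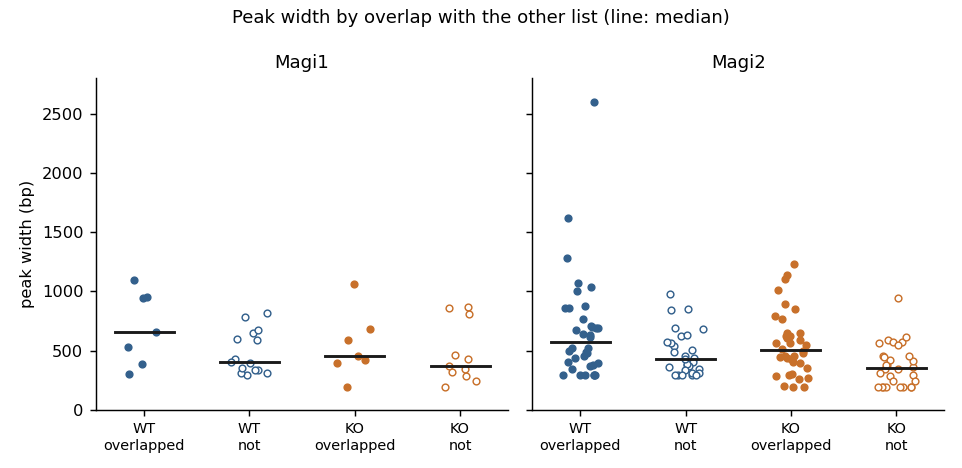
Each circle is the width (bp) of a peak in Magi1 or Magi2, filled where it overlaps a peak of the other list by at least 1 bp and open where it does not, with a line at the median. In Magi2 the medians are 569 and 431 bp in WT and 506.5 and 351.5 bp in KO, and 1 WT peak reaches 2602 bp.

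The peaks in the Magi genes stayed far below the highest pileups of the lists. Pileup, the coverage of extended tags at a peak, ran from 16.1 to 46.5 with a median of 30.3 in Magi2 in WT, and from 13.4 to 31.7 with a median of 21.0 in KO. In Magi1 it ran from 18.2 to 40.1 in WT (median 31.5) and from 14.4 to 28.6 in KO (median 20.8). The medians over the whole lists were 25.3 and 19.1, with single peaks up to 54547.7 and 66281.3. The authors' fold enrichment over local background had medians of 2.56 in WT and 3.0 in KO in Magi2 and of 2.44 and 2.83 in Magi1, below the whole-list medians of 2.72 and 3.08. Pileup is not scaled between libraries and depends on d, so WT and KO heights are not compared.

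The most significant peak of Magi2 in WT was at chromosome 5 from 19624195 to 19624536, 405 kb from the start, with a −log10 q of 8.02, and a KO peak from 19624280 to 19624470 lay inside it (5.03). The most significant in KO, from 19687426 to 19687614 (468 kb, 6.03), had no WT peak on it. The widest WT peak, of 2602 bp from 19525445 to 19528046, held a KO peak of 891 bp. The widest KO peak, of 1229 bp from 20090991 to 20092219, lay within a WT peak of 1622 bp from 20090724 to 20092345.

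In Magi1 the most significant WT peak was the one nearest the start, at chromosome 6 from 94275943 to 94276253 (7.83 kb, −log10 q of 6.48), and no KO peak overlapped it. The KO peak nearest the start, from 94277556 to 94278411, was not overlapped by a WT peak. The most significant KO peak, from 93824724 to 93825407 (459 kb, 4.59), overlapped a WT peak (3.05). The widest WT peak, of 1097 bp from 93757313 to 93758409, contained a KO peak of 593 bp.

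Other MAGUK genes were mostly free of peaks. Of 19 relatives, 5 (26.3%) held a peak, all in both libraries, against 11.8% of all coding genes. The median was 0 peaks for the relatives and for all coding genes. The relatives were longer, with a median window of 92.9 kb against 21.2 kb for all coding genes, and the part of length was not tested. Among the Dlg genes, scaffolds of synapses and cell polarity, Dlg2 and Dlg5 (2 WT and 1 KO peaks) had peaks and the other 3 had none. Of the tight junction genes, Tjp1 had 2 and 4 and the other 2 had none. The synaptic scaffold gene Cask had 3 and 3 and Mpp7, a polarity gene, 8 and 4, with 0 in the other 6 Mpp genes. The CARD-containing MAGUK genes Card10 and Card14 had 0. Of the 4 relatives with 5 or more peaks, Tjp1 passed the 1.5-fold difference toward KO and Mpp7 toward WT, on 6 and 12 peaks, against 14.4% and 11.6% of all genes with as many.

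Among the genes of proteins that bind MAGI scaffolds, peaks were found at synaptic partners. Of 27 partner genes, 6 held a peak, all of them among the 9 synaptic ones, against 11.8% of all coding genes. Among genes of a length like that of Magi1 81.4% held one, but the partners, with a median window of 72.6 kb, were mostly shorter. These were Ctnnd2, delta-catenin (20 WT and 22 KO peaks), the NMDA receptor genes Grin2b (15 and 15) and Grin2a (2 and 8), the adhesion gene Nlgn1 (9 and 17), the postsynaptic scaffold gene Dlgap1 (9 and 11) and Igsf9b, an adhesion gene of inhibitory synapses (3 and 0). Igsf9b was the 1 partner with peaks in WT only, against 1.9% of all coding genes. The 7 receptor and channel genes, among them the activin receptor gene Acvr2a, had 0. The 6 genes of junctions and the slit diaphragm, with Nphs1 (nephrin), and the 5 signalling genes, with the catenin gene Ctnnb1, also had 0. The synaptic partners were longer, with a median window of 432 kb, against 12.5 kb for the receptors, 71.6 kb for the junction genes and 72.6 kb for the signalling genes, and the part of length in these counts was not tested. Of the 5 partners with 5 or more peaks, Nlgn1 and Grin2a passed the 1.5-fold difference toward KO and 0 toward WT, against 14.4% and 11.6% of all such genes.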

How the data were processed

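Peak lists of 2 H3K9me2 CUT&Tag libraries were analysed, 1 per genotype as the labels state it. The authors ran MACS2 2.2.7.1 per library with broad calling at a q of 0.01, keeping all duplicates, using a background window of 10000 bp and no control, per the file headers. Bowtie2 2.4.2, SAMtools 1.11, Trim Galore 0.6.6 and mm10 are named, without roles, in the submitters' processing notes. Pileup in the deposited lists is coverage by tags extended to d and carries no scaling across libraries. For q-value and p-value the deposited columns hold −log10, and the deposited fold enrichment is the authors' ratio to local background. All these columns describe peaks inside their own list, except for the shared q limit. Without a control and with duplicates kept, regions that attract reads in any library can remain.

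Genes came from RefSeq GRCm38.p6 (49595 genes, 348 scaffold genes left out), and strand from its promoter table. Symbols of all lists matched. Peaks were counted where they overlapped a gene with 2 kb flanks, and placed by midpoint. Intervals are exact (Poisson, Clopper-Pearson, binomial-based for ratios). Python 3.11.15 and scipy 1.17.1 were used, and counting and overlap were tested on simulated data. Alternatives were a q of 1e-05, flanks of 0 and 10 kb, merging within 5 kb, leaving out pileups of 100 or more, reciprocal overlap of 50%, widened KO peaks and 1 Mb flanks. Named genes were the Magi genes, the 3 genes above and 3 below Magi2 in rank, nearest neighbours, and list members with peaks; a few single genes are left out of the text. Named peaks were the lowest q, the widest and those nearest the gene ends. The members and lists were chosen with earlier results of these data known. Promoter distances, CG counts, noncoding genes and genes of similar length were added after seeing the data.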

Additional observations from a re-analysis of the deposited data

How the results depend on the processing

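Of 59 values under alternative settings, 46 stayed within the counting interval of the value reported (or within 1.5 times a count), and 13 did not. Some of the 46 could not have moved, so this tally is not a measure of stability. The pileup limit could remove no peak of Magi1 or Magi2, whose highest pileups were 46.55 in WT and 31.74 in KO. At Magi3 most settings could only keep a count of 0. At a q of 1e-05 or lower, KO peaks numbered 0.444 times the WT peaks at Magi2 and 0 times at Magi1. Peaks at that limit covered 0.441% (WT) and 0.106% (KO) of Magi2 and 0.169% and 0% of Magi1. Of the 9 WT peaks of Magi2, 88.9% were overlapped by a KO peak of any listed q, and 44.4% lay on its start side. Of the 4 KO peaks, 50% were overlapped by a WT peak of any listed q, and 75% lay on the start side. A whole-list overlap share for peaks at this limit is not given here, so nothing is read from these shares. Magi2 ranked 8. Fewer peaks remain at this limit by construction, and Magi1 had none in KO, so its KO overlap and position could not be computed. With reciprocal overlap of 50%, the shared percentages were 38.5% in WT and 37.9% in KO at Magi2 and 13.6% and 16.7% at Magi1, since the criterion is stricter. At Magi3 the counts were also 0 with 10 kb flanks, the 1 alternative that could have raised them. No paired analysis was possible because each genotype had 1 library and no test was made.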

Other observations

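The surroundings of Magi2 and Magi3 hold pairs of related genes, chosen here after the gene positions and peaks were seen. Downstream of Magi2 lie Phtf2, Rsbn1l and the phosphatase gene Ptpn12, and downstream of Magi3 lie their relatives Phtf1, Rsbn1 and Ptpn22, a phosphatase known from lymphocyte receptor signalling. Lrig1 lies upstream of Magi1 and Lrig2 upstream of Magi3. All 8 had 0 peaks in both libraries. Of all protein-coding genes 11.8% held a peak in either list, so nothing is read from that. The stretch without a peak that begins in Magi2 ran for 1531 kb in WT and 1455 kb in KO across its end and these neighbours. The stretch that contains Magi3 ran for 2651 kb in WT and 2491 kb in KO.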
